A study of Mus musculus with 8 samples.

Results

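The genes described here code for the motors that move cargo along microtubules: kinesin heavy chains, kinesin light chains, cytoplasmic dynein subunits and dynactin subunits. They were taken by symbol, as Kif, Klc1 to Klc4, Dync1, Dync2, Dynll, Dynlr, Dynlt and Dctn1 to Dctn6 rows with at least 80 counts summed over 8 libraries. Of 64 rows with such symbols, 60 reached that number among the 21165 rows of the table, and all 60 also passed the filter on low counts that left 12699 genes for testing. The 4 rows below it were Kif2b and Kif12 with 0 counts each, a second Kif7 row with 2 and Kif19a with 72. Just inside it were Dynlrb2 with 103 counts and Klc3 with 211. The 60 genes took from 1.17% to 1.22% of the counts of a KO library and from 1.19% to 1.27% of those of a WT library (n = 4 each).

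Bulk RNA-seq was carried out on whole cortex dissected at E18.5 from 4 Nuak1 KO and 4 WT mouse embryos on a C57Bl/6JRj background. The KO allele is constitutive, so NUAK1, a kinase of the AMPK family involved in axon branching, is missing from every cell of the embryo and not from neurons alone. The sample labels name 3 litters where the series text gives 4, and list 2 males among the KO and 1 among the WT. The count columns carry only a genotype and a running number, so their names assign neither litter nor sex. Transcripts that differ by sex were not examined to assign sex to a column. Library totals ranged from 11027082 to 27014858 counts in KO and from 9643711 to 18940484 in WT, and WT R4 was the shallowest. The targeted gene followed the labels, with 20.5, 13.7, 11.1 and 11.5 normalized counts of Nuak1 in KO libraries R1 to R4 and 1377, 1445, 1118 and 877 in WT R1 to R4. Of 13 cortical projection neuron markers 11 were tested, among them Neurod6 and Tubb3. Markers of meningeal fibroblasts were far higher in KO R1 than in any other library.

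Kinesins are ATP-driven motors that mostly walk toward the plus ends of microtubules, which in axons point to the growing tip. Cytoplasmic dynein, working with the dynactin complex, carries cargo the opposite way, back to the cell body. Kinesin-1 carries mitochondria and vesicles, kinesin-2 works in axons and in cilia, kinesin-3 carries synaptic vesicle precursors and dense core vesicles, and kinesin-4 motors regulate microtubule growth as well as transport. A further group of kinesins builds the spindle and acts at chromosomes and at the midbody of dividing cells. The comparison asks whether transcripts of these motors differ between Nuak1 KO and WT cortex.

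Levels of different genes were compared as RPKM computed from the counts, that is counts scaled by library size and exon length, and values here are WT means with SD (n = 4). Exon length was the union of all annotated exons, which for some genes is far longer than their coding transcripts. For Dync1i2 it was 8280 bases, against 2940 distinct 50-base sequences in its coding transcripts, and for Kif6 6021 against 3660. Levels of such genes may be understated, and their place in the order is uncertain. By this measure the highest was Dctn2, a dynactin subunit, at 209 ± 5.42. It was followed by the dynein light chain Dynlrb1 at 152 ± 12.3, the kinesin-3 Kif1a at 148 ± 9.23 and the kinesin light chain Klc1 at 142 ± 11.1. Dync1h1, the dynein heavy chain, stood at 124 ± 8.95 and its neuronal intermediate chain Dync1i1 at 124 ± 25.5. From Dynlrb1 to Dync1i1 the ranges of neighbouring genes overlapped, whereas every library of Dctn2 lay above every library of Dynlrb1. Among the kinesin-1 heavy chains Kif5c stood at 93.7 ± 3.13, Kif5a at 75.7 ± 1.64 and Kif5b at 43.8 ± 2.33, and the libraries of the 3 genes did not overlap. The best expressed mitotic kinesin, the spindle motor Kif11, reached 14.7 ± 4.13. At the low end were Kif6 at 0.448 ± 0.111 and Kif17, a kinesin-2 homodimer of dendrites and cilia, at 0.413 ± 0.137, whose ranges overlapped.

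**Figure D1:**
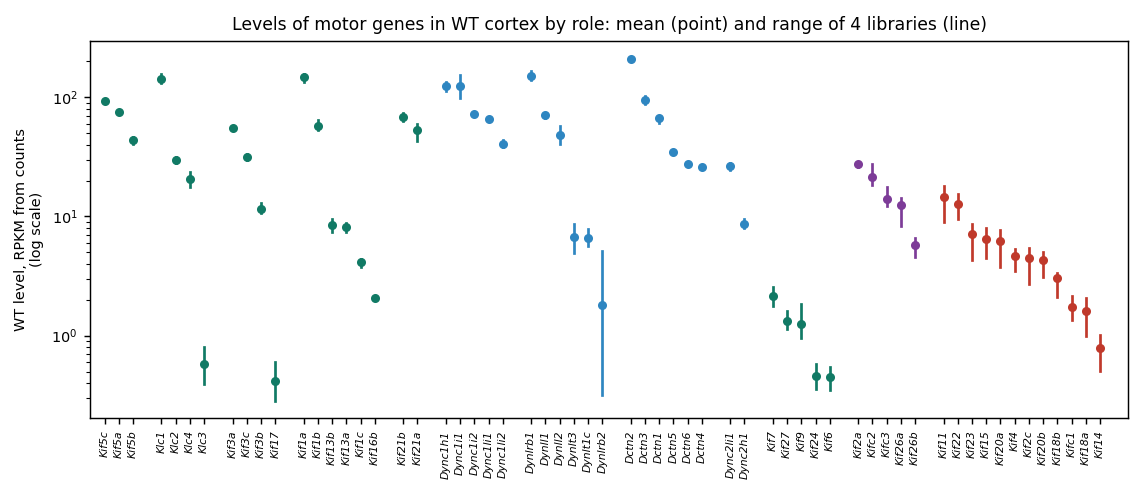
Level of each of the 60 motor genes in WT cortex (RPKM computed from the counts, log axis), grouped by role, with colours for transport and cilium kinesins, dynein and dynactin, mitotic and other kinesins. Points are means over 4 WT libraries and lines run from the lowest to the highest library, and the mitotic kinesin means lie at or below the 14.7 of Kif11.

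By the quasi-likelihood test of edgeR, 1 of the 60 motor genes had an unadjusted p under 0.05, the atypical kinesin Kif26b, which was higher in KO. Over all genes tested that share was 7.69% (4.51% higher and 3.18% lower in KO). Kif26b was also the only motor gene whose KO and WT libraries did not overlap, against 4.49% of all genes (2.64% higher in KO), and the only one past both an absolute log2 fold change of 0.25 and an unadjusted p under 0.05, against 4.25%. None of the 60 passed a Benjamini-Hochberg adjusted p of 0.05, against 0.0709% of all genes, or 9 genes. DESeq2 called 1 of the 60 after adjustment, again Kif26b, against 0.551% of all genes, and 1 of the 60 at an unadjusted p under 0.05, against 7.21%. The median log2 fold change was -0.01 for the 60 genes and -0.01 for all genes, and 24 of the 60 were higher in KO by sign, against 45.6% of all genes. For 53 of the 60 (88.3%) the log2 fold change lay within 0.25 of 0, as it did for 86.4% of all genes. The 95% confidence interval itself lay within 0.25 of 0 for 30 of the 60 (50%), against 36.5% of all genes.

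**Figure D2:**
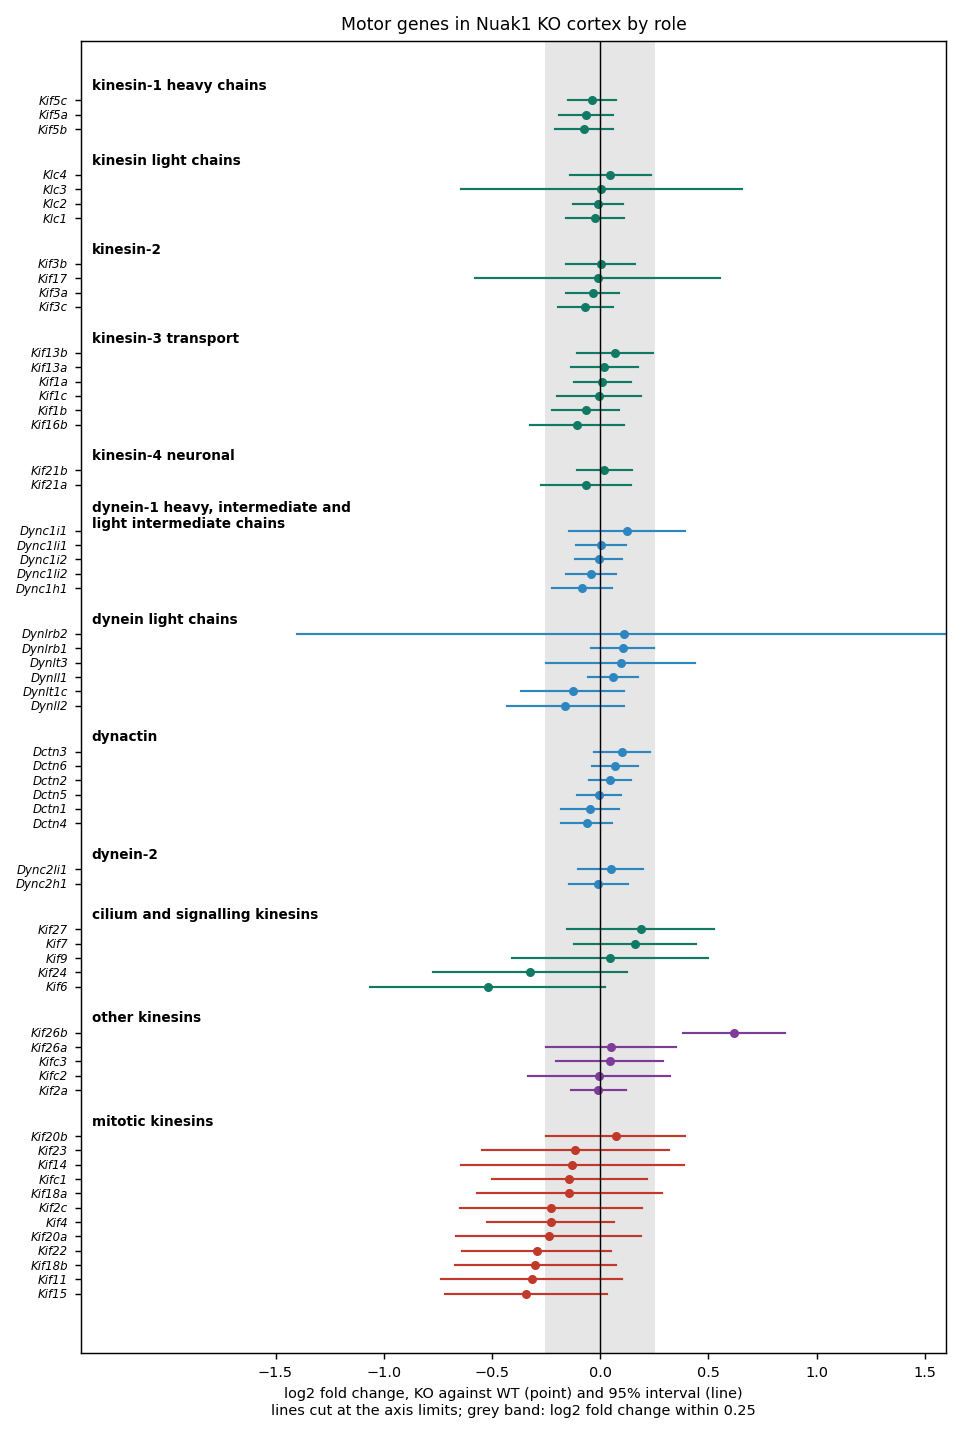
Log2 fold change of each motor gene in KO relative to WT with its 95% confidence interval from edgeR (n = 4 libraries per genotype), grouped by role, where the grey band marks 0.25 to either side of 0 and the interval of Dynlrb2 runs past the axis. Kif26b, at 0.62, is the only gene whose interval leaves out 0, and the mitotic kinesins lie between -0.34 and 0.07 with wide intervals.

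The 3 heavy chains of kinesin-1, which carries mitochondria into the axon, differed little between genotypes. Kif5a, the neuronal isoform, had 7407, 8545, 7694 and 8471 normalized counts in KO R1 to R4 and 8632, 8209, 8436 and 8315 in WT R1 to R4. KO R1 and R3 lay below all WT libraries, which were close together, and KO R2 and R4 fell within the WT range. The log2 fold change was -0.06 (SE 0.06, 95% confidence interval -0.19 to 0.06). Kif5b, the isoform of all cell types, gave 4848, 5407, 5328 and 4775 in KO and 5286, 5531, 5616 and 4983 in WT (log2 fold change -0.07, interval -0.21 to 0.06). Kif5c, also neuronal, gave 10647, 11426, 10463 and 10531 in KO and 11010, 10567, 11439 and 11197 in WT (log2 fold change -0.04, interval -0.15 to 0.07). In each of the 3 genes the genotypes overlapped.

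Among the light chains, which link kinesin-1 to cargo, Klc1 had 9145, 9630, 9070 and 9773 normalized counts in KO and 9190, 8925, 9546 and 10618 in WT. Its groups overlapped over most of their range, with a log2 fold change of -0.02 (interval -0.16 to 0.11). Klc2 and Klc4 had log2 fold changes of -0.01 and 0.05 with intervals inside 0.25. Klc3 rested on a mean of 25 normalized counts in KO and 24.9 in WT, and its interval ran from -0.64 to 0.66. Of its exon length, 28.4% overlaps Ercc2 on the opposite strand, so part of its few reads may belong to that gene if strand was not used in counting.

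Kif3a, the shared subunit of heterotrimeric kinesin-2, gave 4772, 5656, 5263 and 5190 in KO and 5335, 5257, 5447 and 5339 in WT. KO R1 was the lowest of the 8 libraries and KO R2 the highest, with the WT libraries between them and a log2 fold change of -0.03 (interval -0.16 to 0.09). Its partners Kif3b and Kif3c had log2 fold changes of 0.00 and -0.07. Kif17, with a mean of 30.9 normalized counts in KO and 31.3 in WT, could not be bounded within 0.25.

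Kif1a, the main carrier of synaptic vesicle precursors, was the most highly expressed kinesin. Its normalized counts were 19418, 20516, 20007 and 21726 in KO and 20627, 18438, 20733 and 21326 in WT. The 2 groups covered nearly the same range, and the log2 fold change was 0.01 (SE 0.06, interval -0.12 to 0.14). Kif1b, whose isoforms carry mitochondria and synaptic vesicle precursors, gave 14682, 17279, 15681 and 15755 in KO and 16562, 15733, 18572 and 15502 in WT (log2 fold change -0.07, interval -0.22 to 0.09). The other kinesin-3 motors, Kif1c, Kif13a, Kif13b and Kif16b, had log2 fold changes from -0.11 in Kif16b, an early endosome motor, to 0.07 in Kif13b.

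In the kinesin-4 group, Kif21a gave 5108, 5937, 5690 and 5209 in KO and 5620, 6398, 6253 and 4647 in WT. WT held both the highest and the lowest library, the lowest being WT R4, and the interval ran from -0.27 to 0.14. Kif21b, a regulator of microtubule dynamics in neurons, gave 12527, 12232, 12581 and 12333 in KO, a spread narrower than the 12820, 11732, 13192 and 11249 of WT (log2 fold change 0.02, interval -0.11 to 0.15). Across the 19 transport kinesins and light chains, 0 had an unadjusted p under 0.05 in edgeR or in DESeq2, the median log2 fold change was -0.01, and the interval lay within 0.25 of 0 for 15. The exceptions were Klc3, Kif17, Kif16b and Kif21a.

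With all 8 libraries, no gene of the retrograde motor passed the test. Dync1h1, its heavy chain, gave 28559, 31519, 29856 and 31267 normalized counts in KO and 33169, 29143, 34556 and 31711 in WT. The WT mean was higher but the groups overlapped, with a log2 fold change of -0.09 (SE 0.06, interval -0.22 to 0.05). Dync1i1, the intermediate chain enriched in neurons, gave 6256, 6323, 6768 and 7135 in KO and 6674, 7523, 5232 and 4841 in WT. The 4 WT libraries enclosed the 4 KO libraries, and the log2 fold change of 0.12 had an interval from -0.14 to 0.39. This value depended on single libraries, at 0.25 without WT R2 (unadjusted p = 0.0379, adjusted p = 0.577 in edgeR), 0.06 without WT R3 and 0.04 without WT R4. Dync1i2, Dync1li1 and Dync1li2 lay between -0.04 and 0.00.

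Dynactin links dynein to cargo and lets it walk over long distances. Its largest subunit, Dctn1 (p150Glued), gave 6519, 6950, 6721 and 7513 in KO and 7307, 6554, 7248 and 7510 in WT (log2 fold change -0.05, interval -0.18 to 0.09). All 6 dynactin genes had intervals within 0.25 of 0, with log2 fold changes from -0.06 in Dctn4 to 0.10 in Dctn3.

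The light chain Dynll1 (LC8), a hub protein also found outside dynein, gave 3669, 3609, 3677 and 3338 in KO and 3383, 3571, 3261 and 3488 in WT. Its upper KO libraries stood above all WT libraries while KO R4 fell among them (log2 fold change 0.06, interval -0.05 to 0.18). Its paralog Dynll2 had a log2 fold change of -0.16 with an interval from -0.43 to 0.11. Dynlt1c shares 30% of its 50-base sequences with near-identical Dynlt1 copies, so its value of -0.13 is uncertain. Dynlrb2 rested on 103 counts in all, and WT R4 had 42.2 normalized counts of it against 2.63 to 8.22 in the other WT libraries. Over the 17 genes of dynein-1, its light chains and dynactin, 0 had an unadjusted p under 0.05 in edgeR or in DESeq2, the median log2 fold change was 0.00, and the interval lay within 0.25 of 0 for 12.

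Motors of cilia were measured by fewer counts. Dync2h1, the heavy chain of dynein-2, which returns cargo from the ciliary tip, gave 2270, 2445, 2228 and 2196 in KO and 2243, 2533, 2261 and 2140 in WT (log2 fold change -0.01, interval -0.15 to 0.13). Kif7, a regulator of Hedgehog signalling at the ciliary tip, gave 178, 167, 179 and 204 in KO and 171, 192, 155 and 132 in WT. KO R4 was the highest library and WT R4 the lowest, while the rest were mixed (log2 fold change 0.16, interval -0.12 to 0.44). None of the 5 kinesins of cilia and signalling had an interval within 0.25 of 0. Kif6, with 25.4 to 41.1 normalized counts in KO and 34.9 to 54.2 in WT, had the second smallest unadjusted p of the 60 genes, 0.0592, in edgeR (log2 fold change -0.52, interval -1.06 to 0.02, adjusted p = 0.667), and its unadjusted p fell under 0.05 without KO R2, WT R1 or WT R2.

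The balance between partner subunits or paralogs was tested as the log2 ratio of their counts within each library, which does not depend on scaling. For 10 pairs, a two-sided exact permutation test gave adjusted p-values of 0.75 or more. The smallest unadjusted p this design allows is 0.0286, so a single pair at that p could not pass adjustment over 10 pairs. The test therefore cannot show that the ratios were unchanged. The largest difference was in Dynll1 to Dynll2, with a log2 ratio of 0.88 ± 0.15 in KO and 0.67 ± 0.28 in WT (SD, n = 4, exact permutation p = 0.2, adjusted p = 0.75). The ratio of the intermediate chains Dync1i1 to Dync1i2 was -0.56 ± 0.09 in KO and -0.72 ± 0.30 in WT. For the heavy chains, Kif5a to Kif5b was 0.66 ± 0.13 in KO and 0.65 ± 0.08 in WT. Kif1a to Kif1b was 0.37 ± 0.09 in KO and 0.29 ± 0.13 in WT.

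Adaptors and regulators connect these motors to mitochondria, vesicles and microtubules. Of 39 such genes listed, 36 were tested, and their median log2 fold change was -0.02, with 14 higher and 22 lower in KO by sign. In edgeR 1 had an unadjusted p under 0.05 (2.78%, against 7.69% of all genes) and 0 passed adjustment. It was Capza2, a capping protein subunit that is also part of dynactin, with 3560, 3479, 3395 and 3289 normalized counts in KO and 3210, 3085, 3218 and 3241 in WT. Each KO library lay above each WT library, but by little, with a log2 fold change of 0.11 (SE 0.05, unadjusted p = 0.0447, edgeR adjusted p = 0.645). The unadjusted p rose above 0.05 without KO R1, KO R2, KO R3, WT R1 or WT R2, to between 0.0617 and 0.0927.

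Kif26b codes for an atypical kinesin, thought not to use ATP for movement, that binds microtubules and acts in Wnt5a-Ror signalling and cell adhesion. It spans chr1:180459256-180862986 on the plus strand of NCBIM37, with 16 exon blocks. Its normalized counts were 1053, 1146, 1168 and 1174 in KO R1 to R4 and 848, 670, 847 and 591 in WT R1 to R4. The lowest KO library stood above the highest WT library. Kif26b was 1.53-fold higher in KO (log2 fold change 0.62, SE 0.11, 95% confidence interval 0.38 to 0.85), with an unadjusted p of 0.000128 and an adjusted p of 0.0853 in edgeR, above the threshold. In DESeq2 the log2 fold change was 0.63 and the adjusted p was 3.11e-05, below it. A two-sided exact permutation test of the 8 libraries gave p = 0.0286, the smallest it can give. Leaving out single libraries gave values from 0.54, without WT R4, to 0.69, and over all alternatives fitted in edgeR the adjusted p ranged from 0.0577 to 0.372. Per length, Kif26b was among the lower motor genes, with a mean of 5.72 RPKM in WT (4.58 to 6.56) and 8.79 ± 0.435 in KO (SD, n = 4).

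Its closest relative Kif26a had overlapping genotypes. It gave 1412, 1530, 1566 and 1402 normalized counts in KO and 1590, 1528, 1612 and 953 in WT. Except for the low WT R4, the WT libraries lay within or just above the KO range (log2 fold change 0.05, interval -0.25 to 0.35, exact permutation p = 0.943). The difference between the effects on Kif26a and Kif26b was not tested. Of the Kif26b exon length, 11.6% overlaps Gm16564 on the opposite strand, and reads of that stretch cannot be told apart if strand was not used in counting. In bulk cortex, a change in the number of cells of a type and a change in RNA per cell cannot be told apart. Among the 11 projection neuron markers tested, 5 had an unadjusted p under 0.05 in edgeR and 0 passed adjustment, among them Cux1 at a log2 fold change of 0.28, Cux2 at 0.20, Bcl11b at -0.30 and Fezf2 at -0.36. The summed normalized counts of that list were 45220 to 50670 in KO and 38530 to 47390 in WT. Their part in the Kif26b result was not tested. In KO R1, the library with raised meningeal markers, the normalized count of Kif26b was the lowest of the 4 KO libraries, and without KO R1 the log2 fold change of Kif26b was 0.66. Whether meningeal tissue has a part in the Kif26b values was not tested.

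**Figure D3:**
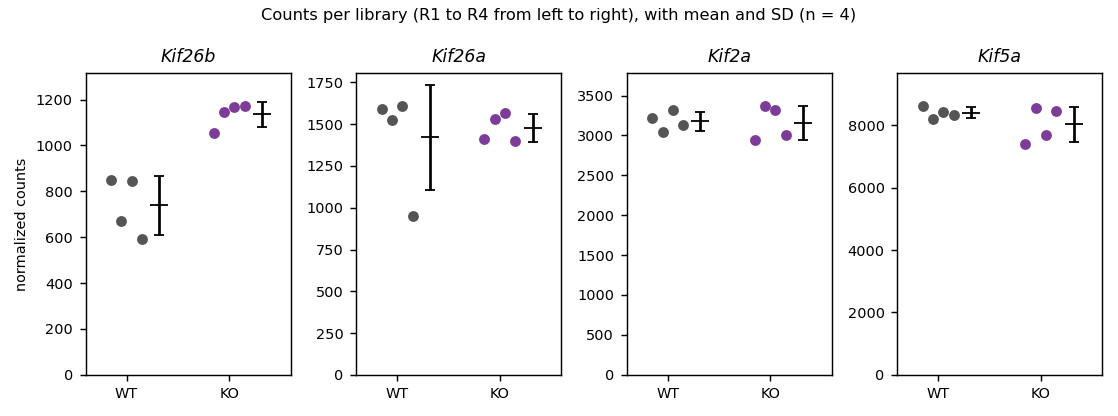
Normalized counts of Kif26b, its relative Kif26a, the depolymerizing kinesin Kif2a and the kinesin-1 heavy chain Kif5a in each library, with the mean and SD of each genotype (n = 4). The KO and WT points of Kif26b do not overlap (1053 to 1174 against 591 to 848), and those of the other 3 genes do.

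The rest of that group held Kif2a, Kifc2 and Kifc3. Kif2a, which takes microtubules apart at their ends and limits axon branches, gave 2945, 3375, 3313 and 3001 in KO and 3213, 3040, 3321 and 3126 in WT. The WT libraries all fell inside the KO range, with a log2 fold change of -0.01 (interval -0.14 to 0.12). The minus-end kinesins Kifc2 and Kifc3 had log2 fold changes of -0.01 and 0.04.

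The 12 kinesins of mitosis and cytokinesis were set apart from the transport motors. By sign, 11 of the 12 were lower in KO, with a median log2 fold change of -0.23 and a range from -0.34 in Kif15 to 0.07 in Kif20b. None had an unadjusted p under 0.05 in edgeR, where the smallest was 0.0685 in Kif15 (adjusted p = 0.688), and 0 did in DESeq2. Kif11, which slides spindle microtubules apart, gave 1052, 830, 1108 and 779 normalized counts in KO and 1122, 1424, 1406 and 721 in WT. The genotypes overlapped fully, because WT R4 was the lowest of the 8 libraries while WT R2 and R3 were the highest (log2 fold change -0.32, SE 0.19, interval -0.73 to 0.10). Kif15, which works beside Kif11 in the spindle, gave 442, 366, 472 and 338 in KO and 466, 593, 633 and 355 in WT, again with WT R2 and R3 at the top. Kifc1 shares 45.3% of its 50-base sequences with Kifc5b, and 32.3% of the exon length of Kif20a overlaps Cdc23 on the opposite strand, so both values are uncertain.

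The mitotic kinesins varied together from library to library. Their median deviation from the gene's mean log2 level was 0.07, -0.28, 0.11 and -0.28 in KO R1 to R4 and 0.12, 0.38, 0.35 and -0.50 in WT R1 to R4. WT R4 was the lowest library for 8 of the 12 genes, and WT R2 and WT R3 were the highest for 6 each. The other 48 motor genes had medians between -0.05 and 0.04 in the same libraries. A list of 25 tested proliferation genes, which holds no kinesin, varied likewise, with medians of 0.11, -0.21, 0.08 and -0.29 in KO and 0.06, 0.29, 0.39 and -0.39 in WT. Of those 25 genes 23 were lower in KO by sign, the median log2 fold change was -0.21, and 1 had an unadjusted p under 0.05 in edgeR (Aurka, -0.38, adjusted p = 0.646). The summed normalized counts of that list were 16110 to 20710 in KO and 15180 to 24070 in WT. For 10 tested radial glia and intermediate progenitor markers the median log2 fold change was -0.11, with 9 lower by sign. Of these, 1 had an unadjusted p under 0.05 in edgeR (10%, against 7.69% of all genes), Slc1a3 at -0.30 (adjusted p = 0.611). Their median deviations were 0.09, -0.05, 0.11 and -0.27 in KO R1 to R4 and -0.01, -0.02, 0.32 and -0.20 in WT R1 to R4. Their sums were 23590 to 27810 in KO and 22280 to 31840 in WT. Most of that was Fabp7, with a mean of 15357 in KO and 15764 in WT. The part of cell composition in the mitotic kinesin values was not tested.

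**Figure D4:**
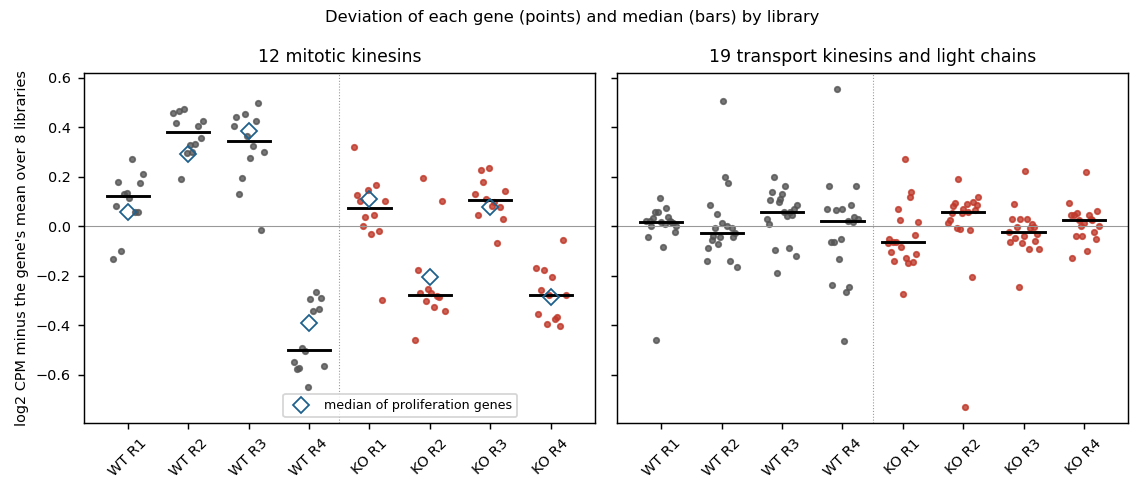
Deviation of each of 12 mitotic kinesins (left) and 19 transport kinesins and light chains (right) from the gene's mean log2 CPM over the 8 libraries, by library, where points are genes, bars are medians and diamonds are the median of the proliferation genes. The mitotic median runs from -0.50 in WT R4 to 0.38 in WT R2 with the diamonds close to it, and the medians on the right stay near 0.

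The call for this group depended on WT R4. Without it, 7 of the 12 mitotic kinesins had an unadjusted p under 0.05 in edgeR, all lower in KO, against 5.4% of all genes lower in KO in that fit. They were Kif11, Kif15, Kif4, Kif20a, Kif18b, Kif22 and Kif2c. All 12 were then lower by sign, with a median log2 fold change of -0.36, and 0 passed adjustment (smallest adjusted p = 0.232), against 0.0854% of all genes. Kif11 stood at -0.47 (SE 0.13, unadjusted p = 0.00388 in edgeR). In the same fit 17 of the 25 proliferation genes had an unadjusted p under 0.05. Of all 60 motor genes, 11 had one (18.3%), against 12.4% of all genes, the others being Kif26b, Dynlrb1, Dynlrb2 and Dctn3, each higher in KO, as were 7.05% of all genes. Kif22 had an unadjusted p under 0.05 without KO R1 as well, and Kif15 without KO R3. Without WT R2 the median of the mitotic kinesins was -0.12.

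**Figure D5:**
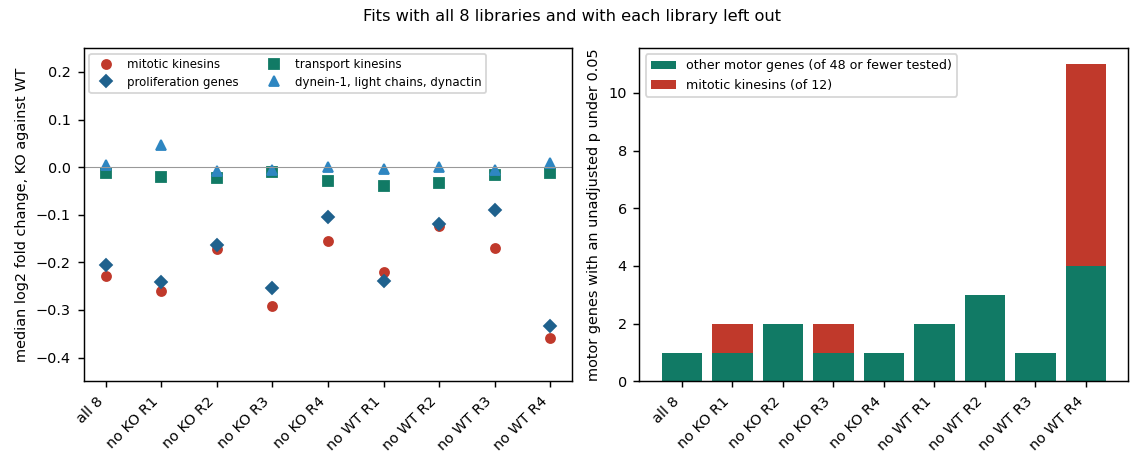
Fits with all 8 libraries and after leaving out single libraries, showing the median log2 fold change of 4 groups of genes (left) and the number of motor genes with an unadjusted p under 0.05, as stacked bars (right). The mitotic median is -0.23 with all libraries and moves between -0.36 without WT R4 and -0.12 without WT R2, and the count goes from 1 to 11 without WT R4.

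Promoter sequence was described for the mitotic kinesins because genes of this class share control by the cell cycle: many carry a cell cycle genes homology region, TTTGAA, near the start, with CCAAT boxes upstream. Windows of 300 bases, from 250 before to 50 after the annotated start, came from RefSeq on GRCm38.p6, which is a later build than that of the counts. They matched 47 of the 60 genes. TTTGAA or its reverse complement TTCAAA was found in 10 of 11 mitotic kinesin promoters (90.9%), in 4 of 43 promoters of the other motor genes (9.3%) and in 17.9% of all 32851 promoters. The letters CCAAT or ATTGG were found in 7 of the 11 (63.6%), in 37.2% of the 43 and in 37.4% of all promoters. Both were present in 63.6%, 4.65% and 6.95%. These counts take a match anywhere in the window. In Kif14 the only TTTGAA began 228 bases before the start, with its CCAAT nearer the start, at 92 before it. In Kif2c the only TTCAAA began 103 bases before the start. The 2 motifs can share at most 1 base, and a match is a description of the sequence alone. The promoter of Kif11 (chr19:37376132-37376431, plus strand), that of the chromosome-arm motor Kif22 (chr7:127042371-127042670, minus strand) and that of Kif18b (chr11:102925075-102925374, minus strand), which helps Kif2c at spindle microtubule ends, hold both motifs, shown in capitals on the sense strand of the gene.
Kif11: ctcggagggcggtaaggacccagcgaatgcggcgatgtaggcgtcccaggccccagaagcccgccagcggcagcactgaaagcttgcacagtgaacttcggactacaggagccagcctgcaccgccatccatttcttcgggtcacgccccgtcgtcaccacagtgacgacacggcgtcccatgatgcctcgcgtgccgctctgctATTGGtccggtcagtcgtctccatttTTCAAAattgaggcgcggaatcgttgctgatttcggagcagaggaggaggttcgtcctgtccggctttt
Kif22: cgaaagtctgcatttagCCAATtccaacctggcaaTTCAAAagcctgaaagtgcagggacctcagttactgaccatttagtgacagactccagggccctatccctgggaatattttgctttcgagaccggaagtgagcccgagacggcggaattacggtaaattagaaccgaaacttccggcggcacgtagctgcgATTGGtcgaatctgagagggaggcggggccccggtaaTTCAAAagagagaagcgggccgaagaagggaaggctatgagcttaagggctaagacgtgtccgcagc
Kif18b: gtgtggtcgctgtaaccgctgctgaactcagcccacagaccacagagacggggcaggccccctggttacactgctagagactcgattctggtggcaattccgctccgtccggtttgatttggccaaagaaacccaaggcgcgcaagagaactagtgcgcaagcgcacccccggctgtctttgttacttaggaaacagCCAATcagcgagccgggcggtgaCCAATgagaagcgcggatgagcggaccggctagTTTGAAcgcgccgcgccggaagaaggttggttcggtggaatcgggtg
The TTTGAA-type match nearest the start begins 19 bases before it in Kif11, 17 before it in Kif22 and 3 after it in Kif18b. Kif18a (chr2:109280488-109280787, plus strand), which dampens chromosome movement in the spindle, is the one of the 11 without either motif, and it is shown for contrast.
Kif18a: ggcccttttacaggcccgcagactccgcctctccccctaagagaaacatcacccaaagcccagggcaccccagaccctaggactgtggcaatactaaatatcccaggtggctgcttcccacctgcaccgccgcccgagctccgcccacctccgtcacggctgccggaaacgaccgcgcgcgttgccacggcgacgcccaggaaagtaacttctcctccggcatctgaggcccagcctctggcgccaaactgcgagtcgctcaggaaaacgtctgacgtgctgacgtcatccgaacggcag
Kif26b (chr1:178528875-178529174, plus strand on GRCm38.p6) is one of the 4 other motor genes with the TTTGAA letters, together with Kif1a, Kif27 and Dctn1. Its promoter is shown because Kif26b is the motor gene that differed most clearly between genotypes, and its TTTGAA begins 9 bases before the start, with an ATTGG further upstream.
Kif26b: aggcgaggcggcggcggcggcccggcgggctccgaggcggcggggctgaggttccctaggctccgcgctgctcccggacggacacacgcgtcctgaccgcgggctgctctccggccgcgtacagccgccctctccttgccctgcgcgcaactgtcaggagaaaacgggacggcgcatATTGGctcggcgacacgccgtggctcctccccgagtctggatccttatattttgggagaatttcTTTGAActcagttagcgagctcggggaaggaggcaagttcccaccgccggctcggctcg
Across libraries, WT R4 was the lowest of the 8 for Kif26b, as it was for 8 of the 12 mitotic kinesins. WT R2 was the second lowest for Kif26b and the highest for 6 of the 12. The deviation of Kif26b was 0.21, 0.33, 0.36 and 0.37 in KO R1 to R4, against mitotic medians of 0.07, -0.28, 0.11 and -0.28. It was -0.10, -0.44, -0.10 and -0.62 in WT R1 to R4, against 0.12, 0.38, 0.35 and -0.50. Whether Kif26b shares control with the mitotic kinesins was not tested.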

How the data were processed

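RNA was sequenced from E18.5 cortices of 4 Nuak1 KO and 4 WT embryos with a stranded poly(A) protocol. Reads were trimmed by the authors (Cutadapt 1.13, Prinseq) and aligned with TopHat2 2.0.13 to mm9, with SAMtools 0.1.19 for file handling. HTSeq-count gave whole-number counts per gene, which the authors deposited as raw counts. Whether counting used strand is not given in the sources used here. Reads of near-identical copies may be lost or split at that step. Sequence shared between genes was judged over 50 bases, while the paper reports longer, paired reads for these libraries. The shared percentages may therefore overstate how many reads are ambiguous.

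KO and WT were compared with edgeR 4.0.16 under R 4.3.3 (TMM scaling, filterByExpr, quasi-likelihood test, two-sided, Benjamini-Hochberg adjustment over 12699 genes). The standard error is the log2 fold change divided by the square root of F. For normalized counts, each library was scaled to the average TMM-adjusted total. Exon lengths for RPKM, and positions, came from GENCODE gene models on NCBIM37, which is the assembly of mm9. Pair ratios used an exact permutation test in SciPy 1.17.1, with no pseudocount (0.5 as an alternative). DESeq2 1.42.0, the authors' tool, other scaling, other filters and leaving out each library were the alternatives. Scripts were tested on simulated data. Libraries were grouped by the genotype in the column name. No label ties the columns to embryos, so p-values measure the spread between these libraries, which differed from each other by more than counting noise.

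The motor genes, their roles and the other lists were chosen with earlier results of these data known. Values in every library are given for the best known and most counted motor of each role and for genes with an unadjusted p under 0.05 or without overlap of genotypes, 18 in all. Kif15, Kif26a, Kif6 and the other genes named with values were chosen after their values were seen. The results of 11 lists of other genes were computed. Beside the 7.69% of all genes with an unadjusted p under 0.05 in edgeR, 1 of 9 endothelial, 1 of 8 interneuron, 1 of 5 red blood cell, 0 of 8 microglia, 0 of 2 choroid plexus and ependymal and 0 of 6 striatal and hippocampal markers had one. So did all 5 tested meningeal fibroblast markers (median log2 fold change 2.93), but 1 of 5 without KO R1 (median 0.40).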

Additional observations from a re-analysis of the deposited data

Results flagged for a closer look

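Among 114 sets of 4 libraries examined, 3 held a library far from the other 3 of its genotype, and chance alone gives about 5.7. The sets come from the same 8 libraries, and this count does not judge any single set. The cilium and signalling kinesins had a median deviation of 0.19 in WT R4 against -0.09 to -0.06 in the other WT libraries. The heavy, intermediate and light intermediate chains of dynein-1 had a median deviation of -0.10 in KO R1 against 0.01 to 0.02 in the other KO libraries. The meningeal fibroblast markers had a median deviation of 4.09 in KO R1 against -0.55 to -0.10 in the other KO libraries.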

How the results depend on the processing

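No paired analysis was run because the names of the count columns carry no litter, embryo or sex. Fits with those terms were not run either. The number of motor genes with an unadjusted p under 0.05 was 1 with all libraries and from 1 to 11 with a library left out, and the number past the fold threshold as well was 1 and from 1 to 9, the highest without WT R4. The number past adjustment was 0 in every edgeR fit and 1 in DESeq2. Kif26b was the gene counted in each of them. Log2 fold changes near 0 changed sign: without a filter on low counts Dync2h1 was 0.00071 and Kif2a 0.0022, and with a library left out Dync2h1 ran from -0.034 to 0.044, Kif1a from -0.033 to 0.041, Kif21b from -0.012 to 0.062, Kif2a from -0.032 to 0.032, Kif3a from -0.061 to 0.014 and Klc1 from -0.056 to 0.035. Pair differences did so as well, with Kif5a to Kif5b from -0.050 to 0.049, Kif5c to Kif5b from -0.0020 to 0.076, Kif5a to Kif5c from -0.066 to 0.0037, Klc1 to Klc2 from -0.049 to 0.022 and Kif3a to Kif3b from -0.094 to 0.0095. The causes were not tested. Genes under about 50 normalized counts, such as Klc3 and Kif17, were too shallow to bound within 0.25.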

Other observations

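Klc3, Kif17 and Dynlrb2, the motor genes with the fewest counts, had standard errors of 0.30, 0.26 and 0.69 on the log2 scale, against a median of 0.09 for the 60 genes and 0.10 for all genes tested. The within-genotype SD of the log2 level had a median of 0.13 over the motor genes, 0.34 over the mitotic kinesins and 0.05 over dynactin.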
